A study of Mus musculus with 24 samples.

Results

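Histones and the proteins that modify, read or move them were measured by 123 probes, out of 15360, in mouse embryos exposed to an activated cyclophosphamide. The members were all probes whose annotation named exactly 1 gene, with a symbol that begins with H1f, H2a, H2b, H3f, H3c, H4c, Hist, Smarc, Hdac, Chd and a digit, Kdm, Kmt, Setd, Dnmt, Ezh, Cbx, Brd and a digit, Hmgb or Hmgn. They covered 77 of the 6970 genes named by probes of this kind, in 4 groups. Histones had 13 probes for 7 genes, chromatin remodellers 27 probes for 17 genes, modifiers together with readers 76 probes for 47 genes, and high mobility group (HMG) proteins 7 probes for 6 genes. The values came in 2 tables from different array platforms. The first table held 59 of these probes for 44 genes, the second 64 probes for 50 genes, and 17 genes had probes in both.

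DNA in the nucleus is wound around octamers of the core histones H2A, H2B, H3 and H4, and linker histone H1 closes the turn. Remodellers of the Smarc and Chd families use ATP to slide or evict these nucleosomes, writers and erasers add or remove acetyl and methyl groups on histone tails or methyl groups on DNA, and readers such as chromobox and bromodomain proteins bind the marked tails. Most core histone genes are transcribed in S phase as DNA is copied, while variants such as H2A.Z and H3.3 are made throughout the cell cycle.

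The treated embryos were kept at 37 °C with 40 µM 4-hydroperoxycyclophosphamide (4CP), a form of cyclophosphamide that needs no activation by the liver, for 1 h. The control embryos were cultured at the same temperature without the drug. RNA of both was put together on 24 two-channel arrays, 12 with the treated RNA in channel 1 and 12 with the channels swapped, from 12 slides that form 6 swapped slide pairs, 3 in each table. Each slide has 2 array records, which may be arrays or repeat scans. Strain, stage, pooling of embryos and dyes are not stated in the labels. Nor do they say that slide pairs come from separate cultures, so the spread behind each p-value may be technical.

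Every value is a log ratio of the channels, of base 2 or e, which the sources do not state. The treatment effect of a pair is the difference between its slides, with treated RNA in channel 1 and in channel 2, divided by 2, after each array was centred on its median. The dye component is their sum divided by 2. With channel 1 as the numerator a positive sign stands for more RNA after treatment, and with channel 2 for less, so directions are given as signs only. All n = 3 refer to the slide pairs of a table. Levels of a gene cannot be read from ratios, so the embryos' tissue make-up could not be checked against the level of marker genes. Over all 7680 probes of a table, the share with an adjusted p under 0.05 in limma was 0.0% for both tables. An unadjusted p under 0.05 was reached by 2.34% of first-table probes (1.84% positive, 0.508% negative) and 5.22% of second-table probes (1.18% positive, 4.04% negative).

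Among the histone and chromatin regulator probes, none passed the adjusted threshold of 0.05. The count was 0 of 59 for the first table, with 0.997 as the lowest adjusted p in limma, beside 0.0% of all its probes. For the second it was 0 of 64, with 0.940 as the lowest adjusted p, also beside 0.0%. At an unadjusted p under 0.05 there was 1 first-table member (H4c18, negative), beside 0.508% of all probes with that sign and 1.84% with the other. There were 6 second-table members, Dnmt3a with a positive sign (1.18% of all probes) and Chd4, Brd7, Hmgb2, Ezh1 and Kdm3b with a negative one (4.04% of all probes).

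One sign in all 3 pairs was shown by 8 of 59 first-table members, against 22.6% of all probes. Of these 2 were positive (11.4% of all probes) and 6 negative (11.2%). In the second table, 20 of 64 did so, against 24.5% of all probes, 8 of them positive (9.84%) and 12 negative (14.7%).

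Taken as the difference between swapped slides, effects were small in both tables. The members of the first table ran from -0.133 to 0.135 log units with a median of 0.0016, and those of the second from -0.243 to 0.080 with a median of 0.0028. Their median absolute effect was 0.030 and 0.025, beside 0.035 and 0.023 for all probes. The 95% confidence interval of a member's mean reached a median of 0.118 to either side for first-table members and 0.071 for second-table members. An effect at the edge of such an interval would be a 1.09-fold difference in base 2 or 1.13-fold in base e in the first table. In the second it would be 1.05-fold or 1.07-fold. For effects taken as this difference, a larger shift lay outside the interval of a typical member with a mean near 0. The spread behind the intervals may be technical. The bound does not cover the reading, given below, in which deposited values were already turned to treated over control.

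By group, first-table histones had a median of 0.021 over 12 probes, remodellers 0.016 over 13, modifiers with readers -0.005 over 31 and HMG proteins 0.030 over 3, beside -0.0047 for all probes. Histones had medians of 0.106, -0.032 and -0.082 in pairs 1, 2 and 3, so the group's sign differed between pairs. Of their 12 probes, 5 were for H2az1 and 3 for H3f3b, so these genes weighed most in the medians. Second-table medians were 0.012 for 14 remodeller probes, 0.0033 for 45 modifiers and readers and -0.023 for 4 HMG proteins, beside -0.0015 for all probes. The member medians over all groups were 0.032, 0.015 and -0.033 in the 3 pairs of the first table, where all probes had 0.026, 0.0026 and -0.014.

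**Figure D1:**
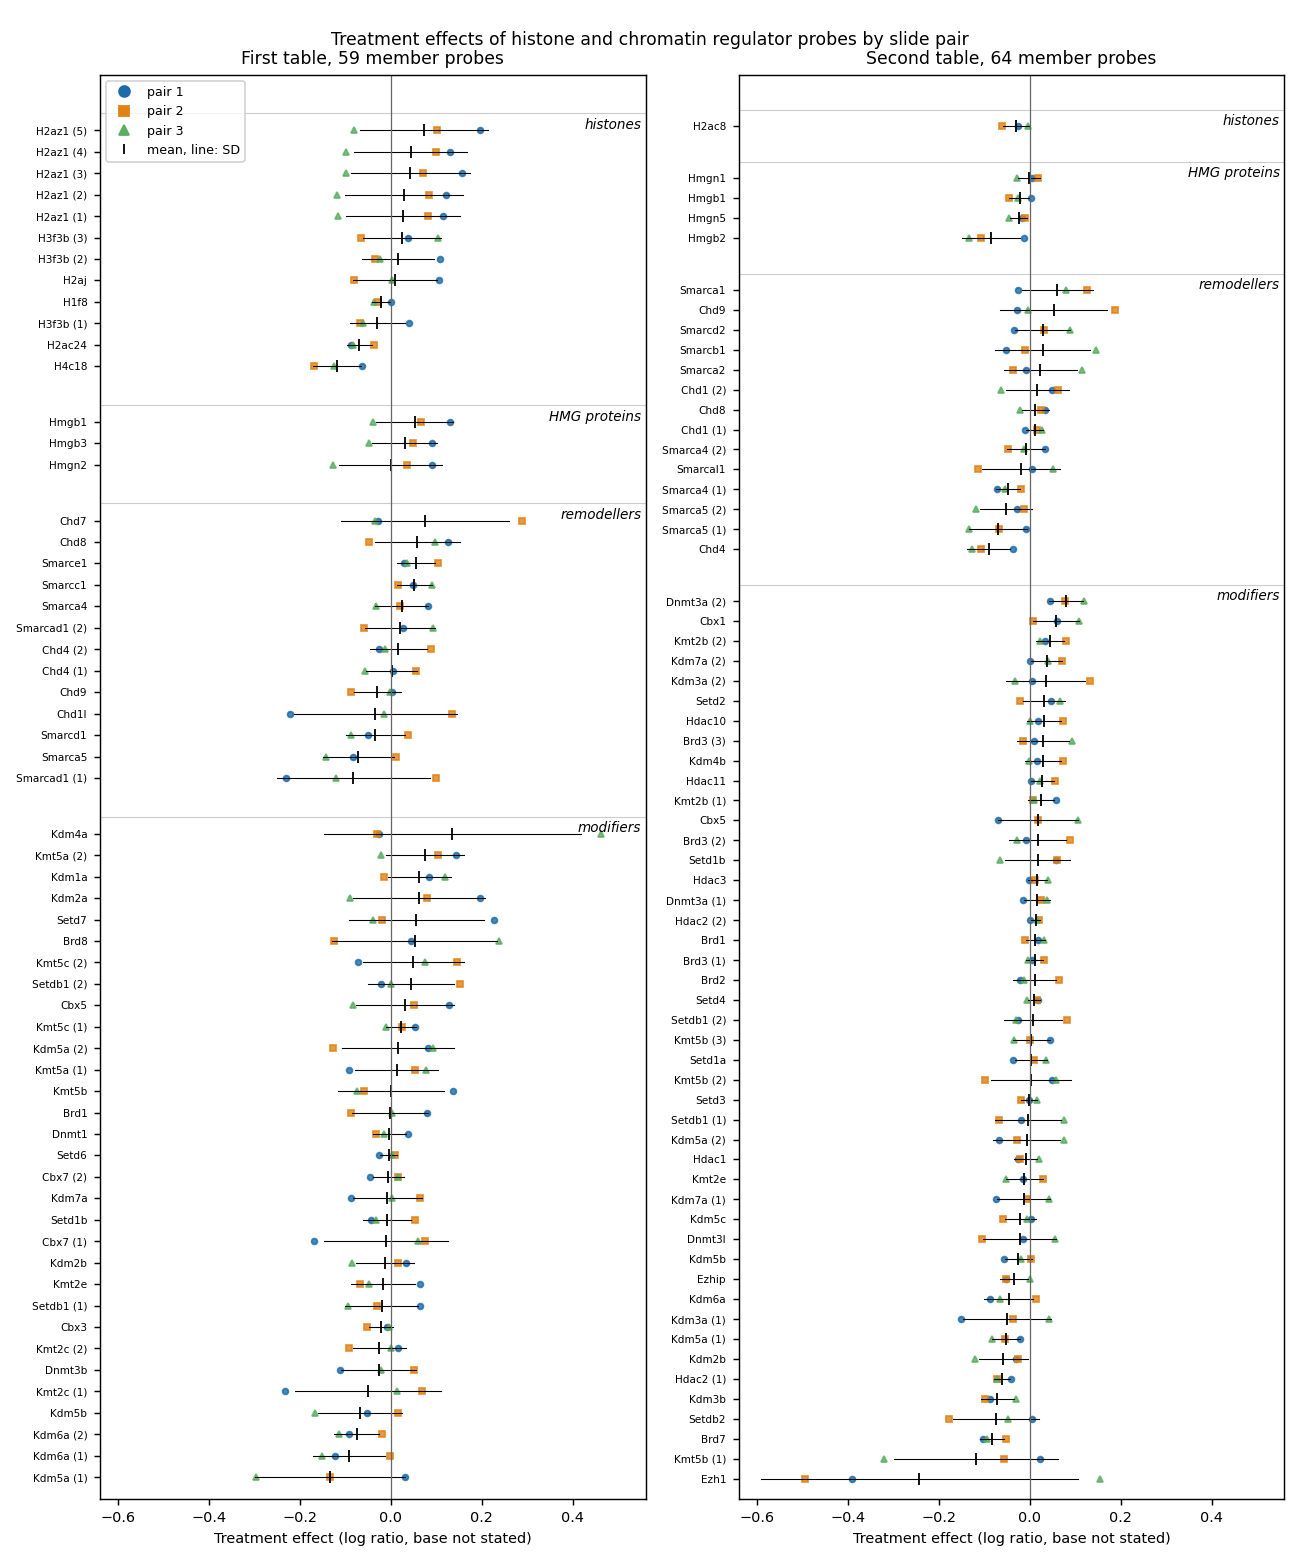
Treatment effect in log ratio units (horizontal axis) of each member probe (vertical axis, grouped and sorted by mean) in the first and second table; coloured symbols are the 3 slide pairs, the tick is their mean and the line its SD. Numbers in brackets tell probes of 1 gene apart. Symbols fall on both sides of 0 for most probes, and the widest spreads belong to Ezh1 in the second table and Kdm4a in the first.

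Core histone genes gave the most negative histone values. H4c18, a gene for histone H4, had -0.064, -0.169 and -0.126 in pairs 1, 2 and 3 of the first table. All 3 values lay below 0, with a mean of -0.120 ± 0.053 (SD, n = 3) and a 95% confidence interval from -0.231 to -0.0086. Its unadjusted p of 0.0377 in limma was the lowest of the table's members, and its adjusted p was 0.997. H2ac24, an H2A gene, had -0.0875, -0.0375 and -0.084, with a mean of -0.070 ± 0.028. H2ac8, another H2A gene and the single histone probe of the second table, had -0.027, -0.061 and -0.004, again with no value above 0. Core histone genes exist in many near-identical copies, and a cDNA probe cannot tell RNA of 1 copy from that of another, so these values may stand for several genes. None of the 3 probes passed the test.

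The linker histone H1f8 and the H2A variant H2aj had means near 0 in the first table. H1f8, the oocyte linker histone, had -0.0001, -0.029 and -0.037, and its mean of -0.022 turned positive under 4 alternative settings. H2aj had 0.105, -0.081 and 0.003, with a mean of 0.0087 ± 0.093 (SD, n = 3), so its pairs differed in sign.

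H2az1, which encodes the variant H2A.Z found around transcription start sites, had 5 probes in the first table. They gave 0.115 to 0.196 in pair 1, 0.070 to 0.101 in pair 2 and -0.119 to -0.081 in pair 3. All 5 probes were therefore positive in the first 2 pairs and negative in the other one. The spread between the 5 probes within a pair had an SD of 0.022, while their average differed between pairs with an SD of 0.129. The probe with the largest mean reached 0.072 ± 0.141 (SD, n = 3), so the mean was smaller than the spread between pairs.

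H3f3b, a gene for the replacement histone H3.3, had 3 probes. They gave 0.038 to 0.107 in pair 1, -0.068 to -0.036 in pair 2 and -0.062 to 0.104 in pair 3. Their means ran from -0.030 to 0.025, with signs on both sides of 0.

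The 3 HMG probes of the first table had the same signs by pair as H2az1. HMG proteins bend DNA or loosen nucleosomes without a preference for sequence. Hmgb1 had 0.130, 0.066 and -0.039 in pairs 1, 2 and 3, Hmgb3 had 0.090, 0.049 and -0.049, and Hmgn2 had 0.090, 0.036 and -0.128. Over the whole first table, 15 of 59 members were positive in pairs 1 and 2 and negative in pair 3, against 15.3% of all probes, a pattern chosen after its values were seen. Besides the H2az1 and HMG probes they included Cbx5, the heterochromatin protein HP1 alpha, with 0.129, 0.050 and -0.084. In the second table the pattern was shown by 9 of 64 members, against 15.7% of all probes.

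The dye component of the H2az1 and HMG probes of the first table was below 0 in every pair, and its part in their effects was not tested. For the H2az1 probes it was -0.761 to -0.657 in pair 1, -0.318 to -0.253 in pair 2 and -1.60 to -1.52 in pair 3, and Hmgb1, Hmgb3 and Hmgn2 were negative in each pair too. The 59 members of the first table share slides and are not replicates. Across them the effect had r = -0.651, 0.144 and 0.240 with the dye component of pairs 1, 2 and 3. After the linear trend on the dye component was removed within each pair, the H2az1 probes had -0.050 to 0.024 in pair 1, 0.116 to 0.145 in pair 2 and -0.068 to -0.029 in pair 3. The values of pair 1, all positive before, then took both signs and were mostly negative, and those of pairs 2 and 3 kept their signs.

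**Figure D2:**
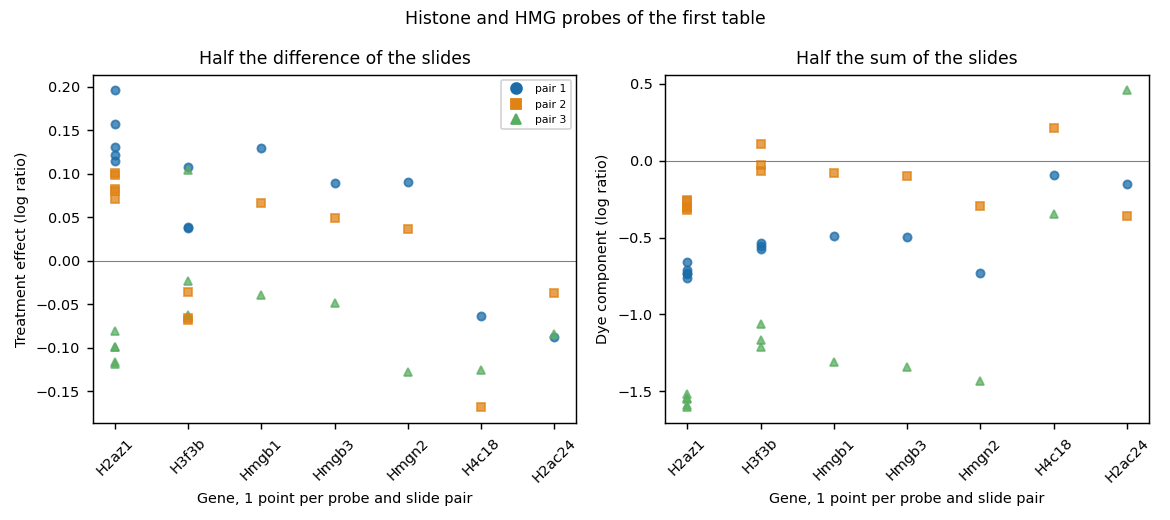
Treatment effect (left) and dye component (right), in log ratio units, of histone and HMG probes of the first table; each symbol is 1 probe in 1 slide pair, and the horizontal line is 0. The 5 H2az1 probes lie close together within a pair and apart between pairs, from 0.196 down to -0.119 in the treatment effect.

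On the second platform, the 4 HMG probes had negative means. Hmgb2, an HMGB protein abundant in dividing cells, had -0.012, -0.107 and -0.135, with a mean of -0.085 ± 0.064 (SD, n = 3; adjusted p = 0.940 with limma). Hmgn5, a nucleosome-binding HMGN protein, had -0.017, -0.010 and -0.046. Hmgb1 had 0.003, -0.045 and -0.025 there, against a positive mean on the first platform, and Hmgn1 had 0.006, 0.017 and -0.029. The dye component of this group had medians of -0.856, 0.020 and -1.40 in pairs 1, 2 and 3. Whether Hmgb1 differed between platforms was not tested.

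The most negative remodeller probes of the second table were those of the NuRD ATPase and an ISWI ATPase. Smarca5, the ISWI motor SNF2H, was the 1 gene of 17 with means beyond 0.05 in size in both tables. The share of all genes with such means was not computed. On its first-table probe Smarca5 had -0.084, 0.011 and -0.143. It had -0.007, -0.067 and -0.134 on 1 second-table probe and -0.028, -0.013 and -0.118 on the other. Both second-table probes were negative in every pair, and the first-table probe in all but pair 2. The means were -0.072 ± 0.078, -0.069 ± 0.063 and -0.053 ± 0.057 (SD, n = 3 each).

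Chd4, the ATPase of the NuRD complex, had -0.037, -0.108 and -0.126 on its second-table probe. No other member of that table had a lower unadjusted p (0.0202 in limma), and its adjusted p was 0.940. Its 2 first-table probes did not share this: they had 0.005, 0.056 and -0.056, and -0.027, 0.088 and -0.012. The means were -0.090 ± 0.047 (SD, n = 3) in the second table against 0.0016 and 0.016 in the first. The difference between tables was not tested.

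Subunits of the SWI/SNF complex, which opens nucleosomes at enhancers and promoters, gave small values of both signs. Smarcc1, a core scaffold subunit, had 0.049, 0.015 and 0.091, and Smarce1, a subunit with an HMG box, had 0.028, 0.104 and 0.036. These were the only 2 first-table members that were positive in all 3 pairs. Smarca4, the ATPase BRG1, had 0.083, 0.021 and -0.033 in the first table. In the second, 1 probe had -0.071, -0.020 and -0.055 and the other 0.034, -0.048 and -0.012, although both are annotated with the same accessions. Smarcad1, a remodeller of newly copied chromatin, had -0.230, 0.1001 and -0.120 on 1 probe and 0.027, -0.060 and 0.092 on the other, so its probes opposed each other in every pair. Smarca1, the other ISWI motor, had -0.025, 0.127 and 0.080 in the second table. The 2 probes of Chd1, a remodeller bound to active genes, had means of 0.011 and 0.017.

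Lysine demethylases had means on both sides of 0, and none passed the test. These enzymes take methyl groups off histone lysines. On the first platform, 6 of 10 demethylase probes had negative means and in the second 9 of 12, with medians of -0.010 and -0.023, while 4129 and 3966 of all 7680 probes were negative. Kdm6a, the H3K27 demethylase UTX, had -0.124, -0.0015 and -0.151 on 1 first-table probe and -0.092, -0.020 and -0.115 on the other. On both probes pair 2 was nearest to 0, and on the second platform Kdm6a had -0.087, 0.014 and -0.066. Its means were -0.092 ± 0.080, -0.076 ± 0.050 and -0.046 ± 0.053 (SD, n = 3 each).

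Kdm5a, an H3K4 demethylase, was divided between its probes. On the first platform, 1 probe had 0.032, -0.134 and -0.298 and the other 0.081, -0.127 and 0.093, which differed most in pair 3. The 2 second-table probes had means of -0.053 and -0.0063. Kdm5b, its paralogue, had -0.052, 0.015 and -0.167 on its first-table probe and -0.057, 0.003 and -0.020 on the other. Kdm3b, an H3K9 demethylase, had -0.086, -0.098 and -0.030 in the second table, with a mean of -0.071 ± 0.036 (SD, n = 3; adjusted p = 0.945 with limma). Kdm3a, also active on H3K9, had -0.151, -0.038 and 0.042 on 1 probe and 0.005, 0.133 and -0.033 on the other.

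Kdm4a, an H3K9 and H3K36 demethylase, had the largest mean of the first table's members, 0.135 ± 0.282 (SD, n = 3). Its values of -0.025 and -0.030 in pairs 1 and 2 stood against 0.461 in pair 3, and without pair 3 the mean was -0.028. In that pair 1 array, with control RNA in channel 1, had a centred log ratio of -0.936, below the other 5 arrays of its orientation. The 2 probes of Kdm7a in the second table had means of -0.013 and 0.037, and that of the first table -0.0077.

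Histone methyltransferases were spread around 0. Kmt5a, which puts the first methyl group on H4K20 in mitosis, had -0.092, 0.053 and 0.076 on 1 first-table probe and 0.142, 0.104 and -0.022 on the other. The H4K20 enzyme Kmt5c had -0.072, 0.145 and 0.075 and 0.054, 0.023 and -0.011. Kmt5b, its paralogue, had 3 second-table probes with means of -0.118, 0.003 and 0.003, where the first had -0.320 in pair 3. On the pair 3 slide with treated RNA in channel 1, that probe read -2.38 on 1 array and 0.601 on the other. Kmt2c, an H3K4 methyltransferase of enhancers, had means of -0.050 and -0.026, and Kmt2b, an H3K4 methyltransferase of promoters, had 0.025 and 0.045 on 2 probes with the same accessions. Setdb1, which methylates H3K9 at silenced repeats, had first-table means of -0.020 and 0.044 and second-table means of -0.0040 and 0.0080. The SET domain proteins together had 2 of 5 positive means in the first table and 5 of 8 in the second.

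Ezh1, a catalytic subunit of Polycomb repressive complex 2, had the mean farthest from 0 of any member, at -0.243 ± 0.348 (SD, n = 3; adjusted p = 0.945 with limma). Its pair values were -0.390, -0.493 and 0.155, so pair 3 had the opposite sign to pairs 1 and 2 and the SD exceeded the mean. The 2 arrays of a slide also differed for this probe. With control RNA in channel 1 they read 1.75 and 0.095 in pair 1, and 0.652 and 1.79 in pair 2. The negative values of these pairs thus rest largely on single high arrays. The 2 Ezh symbols of the second table were Ezh1 and Ezhip, and Ezhip, an inhibitor of the same complex rather than an enzyme, had -0.052, -0.053 and 0.001. Across the 64 members of the second table, pairs 1 and 2 correlated with r = 0.598, and with r = 0.180 without Ezh1, against 0.150 over all probes. The higher value rested on that 1 probe. Pair 3 had r = -0.176 with pair 1 and -0.030 with pair 2. First-table members had r = -0.156 for pairs 1 and 2, -0.0455 for pairs 1 and 3 and -0.103 for pairs 2 and 3. Effects from the first and second arrays of each slide correlated across second-table members with r = 0.067, 0.543 and -0.038 in pairs 1, 2 and 3. Across first-table members these were 0.678, 0.290 and 0.706.

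DNA methyltransferases copy or set methyl marks on cytosine. Dnmt3a, a de novo enzyme, had 0.045, 0.077 and 0.118 on 1 second-table probe, with a mean of 0.080 ± 0.037 (SD, n = 3; adjusted p = 0.940 with limma), the single positive member with an unadjusted p under 0.05. Its other probe had -0.016, 0.025 and 0.039. Dnmt1, the maintenance enzyme, had 0.038, -0.034 and -0.014 in the first table, and Dnmt3b -0.112, 0.052 and -0.022. Dnmt3l, a cofactor without catalytic activity, had -0.016, -0.106 and 0.055.

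Histone deacetylases, which close chromatin by removing acetyl groups, were measured in the second table alone. Of 6 probes 4 had positive means, and the range was -0.062 to 0.031. Hdac2, a class I enzyme of the NuRD and Sin3 complexes, had -0.041, -0.072 and -0.072 on 1 probe and 0.0016, 0.021 and 0.017 on the other. Its probes thus took opposite signs in each pair, while their dye components were -0.621, -0.018 and -1.27 against 0.066, -0.101 and 0.462. Hdac1 had -0.025, -0.022 and 0.021.

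Readers of histone marks gave small values. Brd7, a bromodomain subunit of a SWI/SNF complex, had -0.102, -0.053 and -0.095, with a mean of -0.083 ± 0.026 (SD, n = 3; adjusted p = 0.940 with limma). The 3 probes of Brd3, a reader of acetylated histones, had means of 0.011 to 0.030. Cbx3, an HP1 protein, had -0.0086, -0.052 and -0.0052 in the first table. The 2 probes of Cbx7, a Polycomb reader, had -0.045 and -0.168 in pair 1 and 0.015 to 0.075 in pair 2. Cbx5 had -0.069, 0.018 and 0.105 in the second table, where pair numbers are not known to mark the same RNA as in the first.

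Probes of 1 gene did not always take the same sign. Of 23 gene and table combinations with more than 1 member probe, 9 had probe means of opposite sign. Some of these means were near 0, as for Setdb1 in the second table (-0.0040 and 0.0080). The same share over all genes was not computed, and whether probes differed was not tested.

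The dye component of the second-table members with an unadjusted p under 0.05 took both signs. It was -0.592, -0.088 and -0.992 for Chd4, -0.502, -0.013 and -1.05 for Brd7, -0.861, -0.053 and -1.48 for Hmgb2 and -0.283, 0.113 and -0.696 for Kdm3b in pairs 1, 2 and 3. For Ezh1, also negative in its mean effect, it was 0.533, 0.727 and 0.146, above 0 in every pair. Of all 64 members, 39, 24 and 41 had a component below 0 in pairs 1, 2 and 3. Of all 7680 probes of that table, 3777, 3938 and 3850 did. For the positive Dnmt3a probe it was 0.208, 0.013 and 0.171. Across the 64 members the effect and this component had r = -0.137, -0.207 and 0.433 in the 3 pairs, and the part of the component in the effects was not tested.

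Of the 17 genes measured in both tables, averaged over their probes, 9 had the same sign on both platforms and 8 had opposite signs. Of the 9, 6 were negative and 3 positive. Smarca5 was the 1 gene with both means beyond 0.05. The same shares over all genes measured in both tables were not computed, so these counts have no background. The tables were normalized separately and the pair numbers are not known to mark the same RNA, so the values are given side by side without a test.

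**Figure D3:**
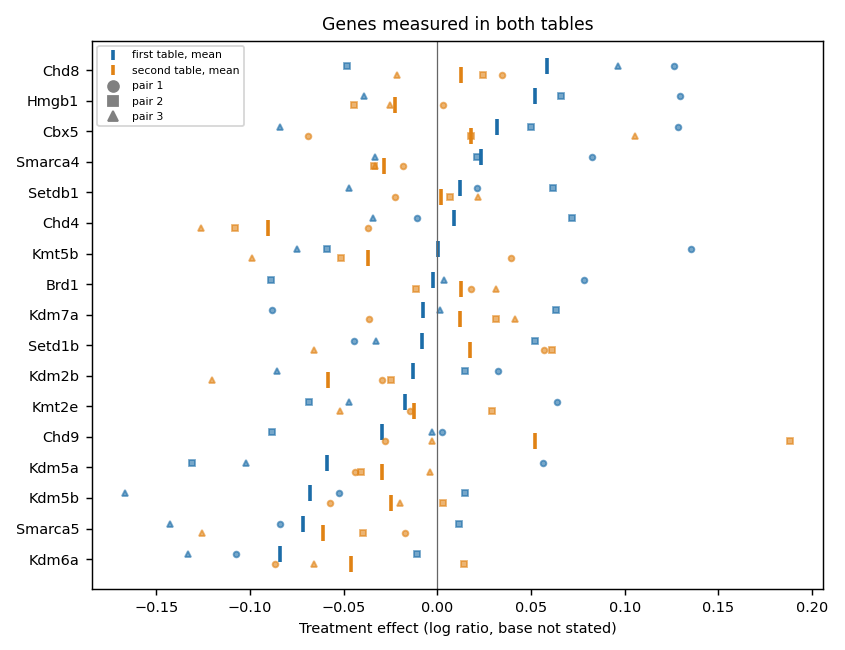
Treatment effect in log ratio units (horizontal axis) of the 17 genes with probes in both tables (vertical axis); blue is the first table and orange the second, small symbols are the slide pairs and bars the mean over the 3 pairs. Smarca5 and Kdm6a have negative means in both tables, while Chd4 and Hmgb1 have means on opposite sides of 0.

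Both slides of a pair gave nearly the same centred log ratio for most members, although their channels were swapped. Across members, the slides correlated with r = 0.879, 0.796 and 0.955 in pairs 1, 2 and 3 of the first table and r = 0.934, 0.675 and 0.967 in the second. Had the deposited values already been turned to treated over control, the dye component would be the treatment effect. Read in that way, 6 first-table members passed, namely the 5 H2az1 probes with means of -0.888 to -0.833 (adjusted p = 0.0290 to 0.0433 with limma) and Hmgn2 with -0.822 (adjusted p = 0.0401). They stood against 2.85% of all probes that passed with a negative sign in this reading. For the second table, 0 members passed in limma (lowest adjusted p = 0.206), beside 0.0% of all probes. At an unadjusted p under 0.05 with limma there were 18 members of the first table and 16 of the second. The share of all probes at that unadjusted threshold was not computed for this reading, so these counts have no background. The sources used here do not settle which reading applies.

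**Figure D4:**
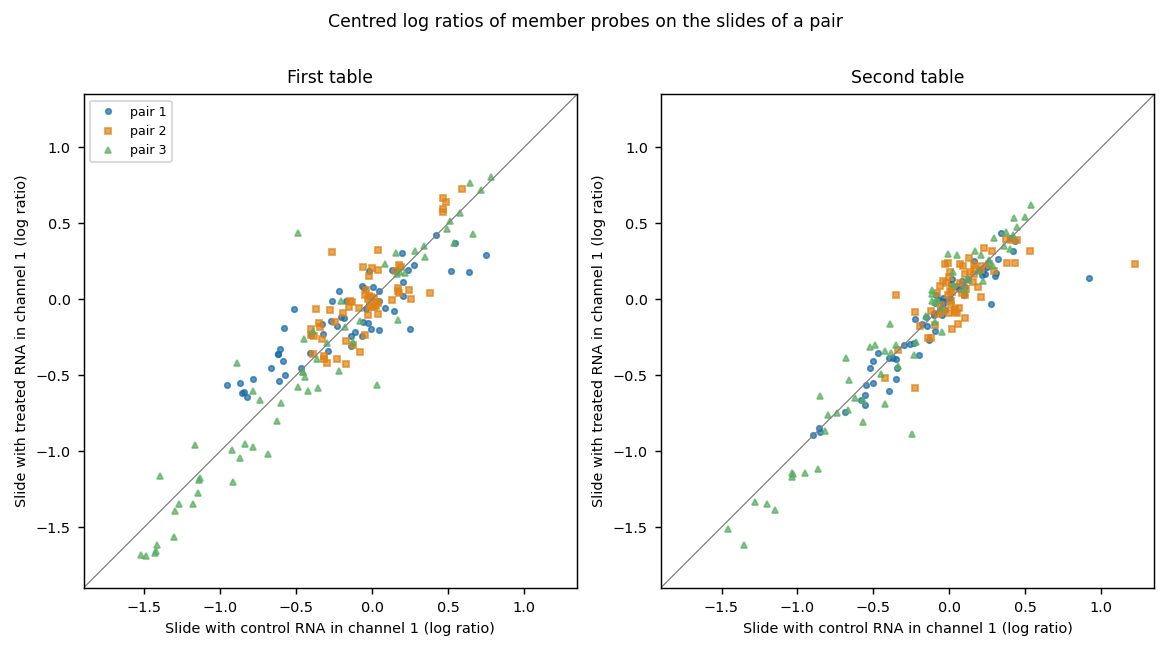
Centred log ratio of each member probe on the slide with control RNA in channel 1 (horizontal axis) and on the slide with treated RNA in channel 1 (vertical axis), by slide pair, in the first and second table; the line marks equal values. Points run along the line, down to -1.69 on the vertical axis of the first table, and Ezh1 is the point farthest to the right in the second table, at 1.22.

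Other chromatin genes were taken from 7 lists, without the members above. On the first platform 60 of their genes were measured, 30 positive and 30 negative, and 0 passed (0 at an unadjusted p under 0.05 with limma). On the second, 58 were measured, 30 positive and 28 negative, and 0 passed, with 6 at an unadjusted p under 0.05. Over all genes, 113 of 3838 and 215 of 4075 had an unadjusted p under 0.05, and the medians were 0.0012 and -0.0032. Of all genes 1956 were positive and 1882 negative on the first platform, and 1873 and 2202 on the second, beside which the counts of the lists are to be read. Histone chaperones and linker-like proteins, which carry histones to DNA, were positive for 10 of 12 genes in the first table, with medians of 0.133, 0.047 and -0.024 in pairs 1, 2 and 3, and for 6 of 13 in the second. Polycomb subunits were negative for 6 of 6 and 7 of 10 genes, with medians of -0.021 and -0.012. Other remodeller subunits were negative for 10 of 12 and 5 of 11. Among these subunits, 3 had an unadjusted p under 0.05 with limma in the second table, with both signs. Bptf, a nucleosome remodelling factor subunit, had -0.124 ± 0.109 (SD, n = 3) and Pbrm1, the polybromo subunit of SWI/SNF, -0.094 ± 0.034. Ep400 was positive, with 0.111 ± 0.143. In the first table Bptf, Pbrm1 and Ep400 had means of -0.0198, -0.0204 and -0.0255. Acetyltransferases, which open chromatin, were positive for 2 of 6 and 4 of 6 genes, and other methyltransferases and cofactors for 10 of 14 and 5 of 7. Sirtuins and corepressor subunits were positive for 4 of 6 and 6 of 9, and DNA methylation partners for 2 of 4 and 0 of 2. Hmga2, an embryonic HMG protein outside the rule, had -0.106 ± 0.042 in the second table and 0.0025 ± 0.164 in the first table, with 0.155, 0.023 and -0.171 in its pairs. Bptf, Pbrm1 and Hmga2 did not pass in the second table (adjusted p = 0.900 for each with limma), nor did Ep400 (adjusted p = 0.913 with limma).

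S-phase genes, which are switched on together with core histone genes, were positive for 9 of 15 in the first table with a median of 0.071, and 6 of them were positive in all 3 pairs, as were 514 of all 3838 genes. Cdc6, which loads the replicative helicase, had 0.0225, 0.335 and 0.167, and Cdt1, its partner, had 0.190, 0.198 and 0.093 (adjusted p = 0.989 for both with limma), and these 2 were the list's genes at an unadjusted p under 0.05. On the second platform, 4 of 8 were positive, with a median of 0.0014. Markers of yolk sac endoderm, erythroid cells, trophoblast or decidua and neural tube had 11 measured genes on the first platform and 8 on the other, of which 5 and 3 were positive, and 0 passed in limma (0 and 1 at an unadjusted p under 0.05). Their part in the histone values was not tested.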

How the data were processed

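Each of 24 two-channel arrays of treated and control mouse embryo RNA was deposited as a column of log ratios, in 2 tables of 7680 probes. The labels and tables do not state how the background was corrected, how arrays were normalized, the log base and the numerator channel. Without spot intensities, dim spots could not be told from bright ones, and the number of arrays limits the precision. The base scales effects and SDs alike and so leaves p-values as they are.

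Arrays were centred on their median and the 2 arrays of a slide averaged. Slide pairs were taken from the titles, which name both slides of each pair. The 3 pair effects of a table were tested against 0 with limma 3.58.1 (lmFit and eBayes, R 4.3.3) over all probes, with Benjamini-Hochberg adjustment at 0.05. The code was tested on simulated data.

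Gene symbols came from the platform annotation and were brought up to date with the RefSeq table of GRCm38.p6. Of first-table probes 4749 had 1 symbol, 227 several and 2704 none, and of second-table probes 4935, 275 and 2470. Matching the rule to symbols as given or as updated gave the same 59 and 64 probes. Probes with several symbols were left out, 6 and 27 of which held a symbol of the rule, mostly H3f3a together with alpha globin genes in the second table (19). Genes were named in the text by size within each group, by lowest p, by presence of several probes and by effects beyond 0.05 in both tables. A few were chosen after their values were seen: H2aj, Hmgb3, Hmgn1, Hmgn2, Ezhip, Cbx5, Kdm5b, Hdac1, the other DNA methyltransferases and the genes named from the other lists. Members and lists were chosen with earlier results of these data known. Alternatives were values as deposited without centring, scaling, quantile normalization, single arrays of a slide, no turn of swapped slides, no term for the slide pair, runs of 240 probes, removal of the dye trend and leaving out each pair.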

Additional observations from a re-analysis of the deposited data

Results flagged for a closer look

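Of 246 groups of 6 arrays (each member probe in each channel orientation), 10 held an array far from the other 5. The cut-off is meant to mark 1 in 20 groups of independent arrays. The 2 records of a slide are not independent, so that rate cannot be set against this count. Kdm4a, the demethylase with the largest mean of the first table's members, had a centred log ratio of -0.936 on the second array of the pair 3 slide with control RNA in channel 1, while the other 5 arrays lay between -0.036 and 0.353. Kmt5b, an H4K20 methyltransferase, had -2.38 on the second array of the second table's pair 3 slide with treated RNA in channel 1, while the other 5 lay between -0.285 and 0.601.

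The other 8 were less far out in log ratio units. With control RNA in channel 1, first-table Kmt2c had 0.485 on a pair 2 array against 0.699 to 0.8002 on the others, and Setd6 had -0.577 on a pair 3 array against -0.118 to 0.148. On the second platform in that orientation, Chd9 had -0.686 against -0.013 to 0.352, Ezhip 0.1999 against 0.391 to 0.447 and Setdb1 -0.430 against -0.058 to 0.092. With treated RNA in channel 1, Brd1 had 0.283 against -0.183 to -0.054, Hdac11 0.683 against 0.307 to 0.446 and Kmt2b 0.391 against -0.214 to 0.0036. The causes were not tested.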

How the results depend on the processing

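Second-table members did not pass under any of the 12 alternatives. Of first-table members, 6 passed without the turn of swapped slides and 0 under the other 11. Over all probes, 33 and 1 passed on the 2 platforms with values as deposited and 219 and 0 without the turn. Without pair 1, 2 or 3 the counts were 24, 30 and 24 for the first platform and 40, 58 and 0 for the second. With no replicate block (no term for the pair) 0 passed in either table. Deposited values without centring put the median of all probes at -0.128 and -0.054, and member medians at -0.103 and -0.083 for histones, -0.108 and -0.041 for remodellers, -0.129 and -0.050 for modifiers, -0.094 and -0.076 for HMG proteins and -0.122 and -0.050 for all members. Without the turn these were -0.601 and 0.118, -0.264 and -0.264, -0.1002 and -0.044, -0.647 and -0.745, and -0.189 and -0.079. In the second table remodellers had 0.0038 under scaling, -0.018 on second arrays, 0.0026 with runs of probes centred and 0.019 with the dye trend removed, against 0.012, and all members had -0.0020 under scaling, -0.013 on second arrays and 0.0064 with the trend removed, against 0.0028. Leaving out 1 pair gave -0.020 to 0.030 for first-table remodellers. The second-table values were -0.013 (without pair 3), 0.0009 and 0.0075 for remodellers, -0.0025 to 0.0083 for modifiers and -0.012, -0.0009 and 0.0016 for all members. Signs of named first-table probes turned without the turn of swapped slides for Cbx3 (0.098), H1f8 (0.129), H2az1 (-0.888), Hmgb1 (-0.627), Smarcad1 (0.507), Smarcc1 (-0.264) and Smarce1 (-0.327), and in the second table for Ezh1 (0.468) and H2ac8 (0.118). With values as deposited they turned for H2az1 (-0.052), Hmgb1 (-0.072), Smarcc1 (-0.072) and Smarce1 (-0.068). H1f8 turned under scaling (0.032), quantile normalization (0.017) and trend removal (0.022), and Kdm4a without pair 3 (-0.028). The cause was not tested.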
